A study of Homo sapiens with 36 samples.

Results

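The genes of Integrator, the complex that cleaves nascent RNA on RNA polymerase II (RNAPII), were examined for clusters of crosslinked reads in PAR-CLIP of the CTD-binding proteins SCAF4 and SCAF8. The 10 genes were INTS1 to INTS10, and a cluster was assigned to a gene when its midpoint lay on the gene's strand and within its GENCODE 44 body on GRCh38. This gave 165 of the 278185 clusters in 18 lists, and 9 of the 10 genes held at least 1 of them. All cells were HEK293 Flp-In T-REx, a human embryonic kidney line, with intact endogenous SCAF4 and SCAF8 genes. The 3 lines were a Dox-inducible FLAG-SCAF4 line, a Dox-inducible FLAG-SCAF8 line and the parental line, which carries no tagged protein. The tagged lines came from single clones that were tested for expression, per the study's methods. The labels give Dox at 100 ng/mL for the tagged lines and list none for the parental line, whereas the study's methods name a higher dose and include the parental line. All cells received 100 μM 4SU overnight and a 500 μM pulse for 2 h and were irradiated at 365 nm and 2000 J/m2. FLAG IP was done from each line, and the IP from parental cells is the control IP. Input was a small part of the same extract taken before IP. Each group had 3 replicates, and each list joined a soluble and a chromatin library, so that 36 libraries gave 18 lists.

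Integrator trims the 3′ ends of spliceosomal U small nuclear RNAs and stops RNAPII early on many protein-coding genes. INTS1, INTS2 and INTS7 belong to its backbone, INTS4 and INTS9 hold the endonuclease INTS11 in the cleavage module, INTS5, INTS6 and INTS8 bind or carry the PP2A phosphatase, INTS10 is in an arm module, and INTS3 also serves in a complex that binds single-stranded DNA. PAR-CLIP marks places where a protein touched RNA, because 4SU crosslinks to protein on UV irradiation and is read as C. The comparison asks where on the transcripts of these genes the tagged proteins were crosslinked, and whether the same places were found in control IP and input.

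The sequences below are shown because they are the stretches found in the most SCAF4 and SCAF8 IP lists without any overlapping cluster in the 9 input and 3 control IP lists, at most 3 per gene and nearest the gene start where tied. They are the transcribed strand in DNA letters of GRCh38, 5′ to 3′, and capitals mark CGG and CGA. Stretches with UTR sequence of the longest or the canonical isoform, such as the INTS4 site, are not printed, and both INTS10 sites overlapped input clusters. INTS8 exon 12, found in 3 SCAF IP lists and in no input or control IP list, meets the same rule but is also not printed. In the list, INTS1, INTS2, INTS6 and INTS7 lie on the minus strand and INTS3 on the plus strand.
INTS1, exon 21, chr7:1486922-1487088: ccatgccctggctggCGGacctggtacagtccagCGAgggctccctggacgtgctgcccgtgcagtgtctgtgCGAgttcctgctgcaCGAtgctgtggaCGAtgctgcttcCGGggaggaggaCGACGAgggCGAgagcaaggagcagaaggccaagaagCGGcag
INTS1, exon 5, chr7:1499859-1500065: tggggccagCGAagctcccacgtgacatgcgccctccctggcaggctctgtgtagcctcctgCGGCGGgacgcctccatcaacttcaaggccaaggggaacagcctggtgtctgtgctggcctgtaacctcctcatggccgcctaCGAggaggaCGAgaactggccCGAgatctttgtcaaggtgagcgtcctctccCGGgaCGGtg
INTS1, exon 6, chr7:1499481-1499634: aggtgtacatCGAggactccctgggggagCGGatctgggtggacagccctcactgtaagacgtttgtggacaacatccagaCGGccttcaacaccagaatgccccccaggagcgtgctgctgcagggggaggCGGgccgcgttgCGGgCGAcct
INTS2, exon 3, chr17:61924957-61925095: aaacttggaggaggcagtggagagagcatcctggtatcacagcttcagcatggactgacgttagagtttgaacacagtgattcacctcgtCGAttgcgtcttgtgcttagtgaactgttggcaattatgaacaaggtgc
INTS2, exon 8, chr17:61907399-61907604: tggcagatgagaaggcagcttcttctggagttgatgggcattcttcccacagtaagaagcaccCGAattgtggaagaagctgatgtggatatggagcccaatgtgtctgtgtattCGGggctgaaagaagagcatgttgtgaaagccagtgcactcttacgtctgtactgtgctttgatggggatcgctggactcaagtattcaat
INTS2, intron 5, chr17:61918069-61918165: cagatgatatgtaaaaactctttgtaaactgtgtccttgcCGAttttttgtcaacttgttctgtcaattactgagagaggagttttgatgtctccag
INTS3, exon 21, chr1:153767687-153767818: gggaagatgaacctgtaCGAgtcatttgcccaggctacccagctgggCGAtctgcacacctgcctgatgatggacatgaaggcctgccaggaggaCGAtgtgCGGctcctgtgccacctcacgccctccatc
INTS3, exon 29, chr1:153772926-153773083: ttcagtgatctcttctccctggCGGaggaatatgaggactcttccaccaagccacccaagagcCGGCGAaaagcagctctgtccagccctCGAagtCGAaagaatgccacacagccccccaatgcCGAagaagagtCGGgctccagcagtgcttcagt
INTS6, exon 16, chr13:51368961-51369060: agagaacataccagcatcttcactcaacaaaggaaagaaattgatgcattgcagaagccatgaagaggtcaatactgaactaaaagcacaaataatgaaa
INTS7, exon 12, chr1:211976552-211976670: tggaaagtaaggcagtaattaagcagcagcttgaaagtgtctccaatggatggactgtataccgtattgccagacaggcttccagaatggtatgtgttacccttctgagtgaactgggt

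INTS1 exon 21, of 48 exons, was found in 5 of the 6 SCAF IP lists and held 10 copies of CGG or CGA in 167 nt, all of it coding. The INTS1 exon 5 stretch covered the whole exon with both of its splice sites, and 138 of its 207 nt were coding. INTS6 exon 16 and INTS7 exon 12 held no CGG or CGA.

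The lists differ widely in size, from 18287 to 54404 clusters in SCAF4 and SCAF8 IP, from 1621 to 9638 in control IP and from 4567 to 12493 in input. They hold no reads, so read depth is unknown, and a gene's clusters are given below both as a number and per 10000 clusters of the list. These shares carry no information on how much of a gene's RNA was present, so that more RNA and more crosslinking per RNA cannot be told apart within a list. A count of 0 in a single list allows up to 3 clusters, which is 2.40 to 6.57 per 10000 in input lists and 3.11 to 18.5 in control IP lists, for counting error only. In the check of the labels, the SCAF4 gene held 14.5 to 35.5 clusters per 10000 in the inputs of the FLAG-SCAF4 line against 1.97 to 5.60 in parental inputs, and the SCAF8 gene 19.3 to 19.98 in the inputs of the FLAG-SCAF8 line against 6.57 to 9.84. The IP lists did not stand apart in this way, since the SCAF4 gene had 4.595 to 8.43 in SCAF4 IP and 4.15 to 6.17 in control IP, and the SCAF8 gene 6.51 to 10.9 in SCAF8 IP, a range that overlapped parental input.

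SCAF4 IP gave 85 clusters in the Integrator genes, SCAF8 IP 56, control IP 6 and the 9 inputs 18. Per 10000 clusters this was 7.28 ± 2.01 (SD, n = 3) in SCAF4 IP, 6.61 ± 0.820 (SD, n = 3) in SCAF8 IP, 3.17 ± 2.78 (SD, n = 3) in control IP and 2.11 ± 1.57 (SD, n = 9) in input. The lowest SCAF4 or SCAF8 IP list, at 5.79, lay above the highest input list, at 5.12, and above the highest control IP list, at 5.19. These lists held 11, 6 and 5 clusters in the Integrator genes, so the gaps rest on few clusters. Such sums follow the genes chosen and were not tested. In SCAF4 IP 8 of the 10 genes held a cluster, and in SCAF8 IP also 8, beside 45.3% and 41.9% of all 20007 protein-coding genes. In control IP it was 5 of the 10 genes and in input 4, beside 18.5% and 30.5%. The Integrator genes thus lay above the share of all genes in control IP and input as well. INTS3 was found in SCAF4 IP and not in SCAF8 IP, and INTS9 the other way round.

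**Figure D1:**
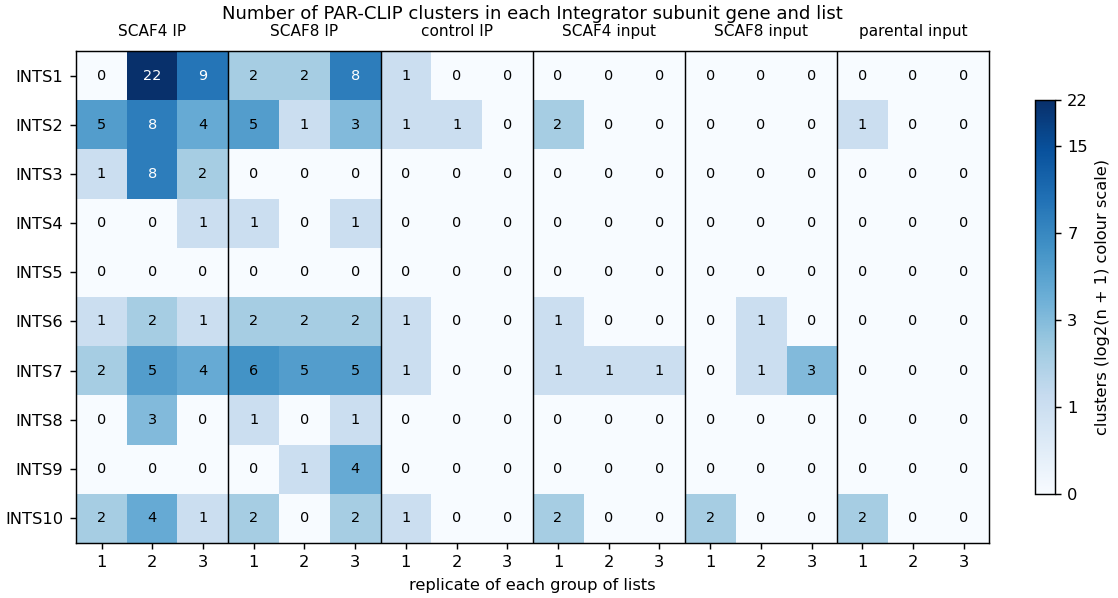
Number of clusters in each of the 10 genes (rows) in each of the 18 lists (columns, 3 replicates in each of 6 groups). Colour follows log2(n + 1). INTS1 has 22 clusters in SCAF4 IP replicate 2 and 0 in all 9 inputs, and INTS5 has 0 in every list.

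INTS1, the largest subunit and a scaffold of the complex, held the most clusters, 44 in all. In SCAF4 IP it had 0, 22 and 9 clusters in replicates 1, 2 and 3, in SCAF8 IP 2, 2 and 8, in control IP 1, 0 and 0, and in each of the 9 inputs 0. Per 10000 clusters the SCAF4 IP lists gave 0, 4.04 and 2.65, and the SCAF8 IP lists 0.794, 1.09 and 1.93. Thus 5 of the 6 SCAF IP lists lay above all inputs, and SCAF4 IP replicate 1 lay level with them. The mean was 1.75 ± 1.45 (SD, n = 6) in SCAF4 and SCAF8 IP, and the difference from input passed a two-sided exact permutation test over 5005 arrangements (p = 0.0020, adjusted p = 0.0136 by Benjamini-Hochberg over 5233 protein-coding genes with at least 10 clusters). INTS1 met this limit through SCAF IP alone, the group in which it was higher. With the clusters of all lists of a kind pooled, the share in SCAF IP was at least 5.39-fold higher than in input, where 3 clusters in the 9 lists together served as the floor for a count of 0. This bound leans on SCAF4 IP replicate 2, which gave 22 of the 43 SCAF IP clusters, and was 3.67-fold without that list.

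INTS2, also of the backbone, was found in all 6 SCAF IP lists, with 5, 8 and 4 clusters in SCAF4 IP and 5, 1 and 3 in SCAF8 IP. Control IP gave 1, 1 and 0. Among inputs, the first replicate of the FLAG-SCAF4 line gave 2, that of the parental line 1, and the other 7 lists 0. The share was 1.42 ± 0.787 per 10000 (SD, n = 6) in SCAF IP and 0.279 ± 0.598 (SD, n = 9) in input, 5.11-fold apart, and the lists overlapped because the highest input list, at 1.71, lay above 4 of the 6 SCAF IP lists. That list, SCAF4 input replicate 1, sets the fold, which was 14.2 without it. The exact permutation test gave p = 0.0066 and an adjusted p = 0.0318.

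INTS1 and INTS2 were the 2 genes called higher among the 6 that had at least 10 clusters, and none was called lower. None of the 6 reached 10 clusters in the inputs, so each met this limit through SCAF IP. Over all 5233 genes tested, 20.8% were called higher and 5.66% lower, and with 6 genes tested a count of 2 does not set the family apart from these shares. The median difference over the 6 genes was 0.494 per 10000, against 0.313 over all genes tested. The calls were not stable. Each IP list can be paired with the input of its own extract, and in this paired fit (replicate block, 6 pairs, exact sign flips) no gene of the 5111 tested was called, since the smallest p of 64 arrangements was 0.0313 and the smallest adjusted p 0.140. INTS1 then had p = 0.0625 and INTS2 p = 0.0313 by the same exact test. Both genes also lost the call without replicate 2 (difference for INTS1 1.34 and for INTS2 1.21 per 10000) and without replicate 3 (1.48 and 1.24), settings in which no gene at all was called. Both kept it without replicate 1, the replicate with longer reads, where the differences were 2.43 and 0.979. Both lost it against the 6 inputs of the tagged lines alone (adjusted p = 0.0591 and 0.0768, exact permutation test). With the difference divided by its standard error, INTS1 kept the call and INTS2 lost it, at an adjusted p = 0.0637 in that permutation test.

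INTS3 had 1, 8 and 2 clusters in SCAF4 IP and 0 in all 15 other lists. Its difference from input in the pooled comparison, 0.43 per 10000, had p = 0.0440 by the exact permutation test and an adjusted p = 0.120. With the SCAF4 IP lists alone against the 9 inputs, the difference was 0.862 per 10000, with an adjusted p = 0.0427 by the exact permutation test. This was the smallest adjusted p in that setting, where 220 arrangements limit it. It does not set INTS3 apart, since INTS11 had the same value. INTS3 was the 1 gene called of the 5 Integrator genes tested there, beside 386 called higher of all 4144 genes tested. It met the limit for testing through SCAF4 IP alone, the group in which it was higher. All 3 SCAF4 IP lists held INTS3 clusters and all 9 inputs held 0, so its p could only be the smallest possible. No conclusion on INTS3 is drawn from this call. With all lists of a kind pooled, its share in SCAF IP was at least 1.38-fold higher than in input, with 3 clusters in the 9 inputs together as the floor. This bound rests on SCAF4 IP replicate 2, which gave 8 of the 11 clusters. Without that list the pooled share was 0.2175 per 10000, below the floor of 0.415.

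INTS6, which joins the phosphatase to the complex, had 1, 2 and 1 clusters in SCAF4 IP and 2 in each SCAF8 IP list. Control IP had 1 cluster, and the inputs had 1 each in FLAG-SCAF4 replicate 1 and FLAG-SCAF8 replicate 2. All 6 SCAF IP lists thus held INTS6, and 7 of 9 inputs did not. Absence from an input says little, because each input list is smaller than each SCAF IP list. The limit for a count of 0, 2.40 to 6.57 per 10000 in input lists, lay above the highest INTS6 share in SCAF IP, 1.09. Reads of the pseudogene INTS6P1, described below with the sites, could also be placed at INTS6. The INTS6 share was 0.593 ± 0.299 per 10000 (SD, n = 6) in SCAF IP and 0.202 ± 0.402 (SD, n = 9) in input, with an adjusted p = 0.156 in the exact permutation test.

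INTS7, of the backbone, was the gene found in the most lists, 12 of 18. It had 2, 5 and 4 clusters in SCAF4 IP, 6, 5 and 5 in SCAF8 IP, 1, 0 and 0 in control IP, and 1, 1 and 1 in the FLAG-SCAF4 inputs. The FLAG-SCAF8 inputs held 0, 1 and 3, and the parental inputs held none. Its share of 1.58 ± 0.774 per 10000 (SD, n = 6) in SCAF IP lay within the range of input, which ran from 0 to 3.33, and the exact permutation test gave an adjusted p = 0.509.

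INTS10 had nearly the same mean share in IP and input. It had 2, 4 and 1 clusters in SCAF4 IP, 2, 0 and 2 in SCAF8 IP and 1, 0 and 0 in control IP. The first replicate of each of the 3 input groups held 2 clusters and the other inputs held none. The share was 0.560 ± 0.379 per 10000 (SD, n = 6) in SCAF IP and 0.611 ± 0.929 (SD, n = 9) in input (adjusted p = 0.940, exact permutation test).

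The remaining genes had too few clusters to be tested. INTS8, which binds the phosphatase with INTS6, had 0, 3 and 0 clusters in SCAF4 IP and 1, 0 and 1 in SCAF8 IP. INTS9, the inactive partner of the endonuclease, had 0, 1 and 4 clusters in SCAF8 IP, and INTS4, which holds both, had 1 in SCAF4 IP replicate 3 and 1 each in SCAF8 IP replicates 1 and 3. None of these 3 genes had a cluster in control IP or input, and INTS5 had none in any list. INTS5 also has the shortest body of the family, 6.46 kb with 2 exons.

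**Figure D2:**
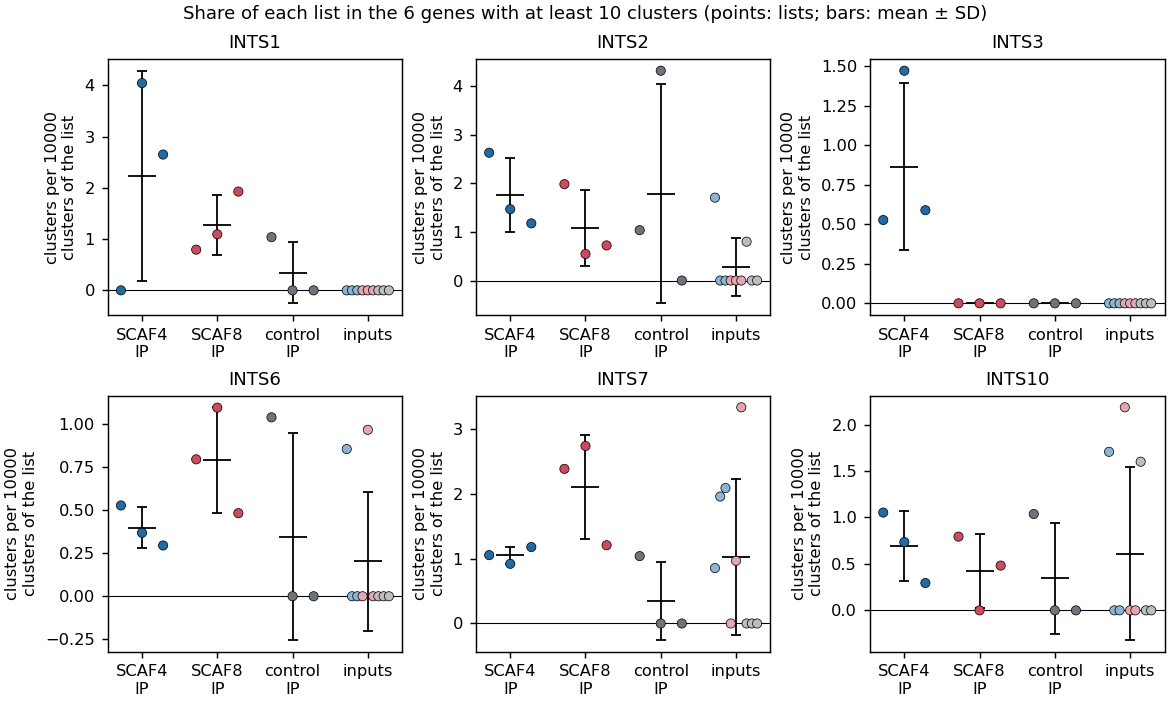
Clusters per 10000 clusters of the list in the 6 genes with at least 10 clusters (vertical axis, own scale for each gene) by group. Points are lists, with inputs of the FLAG-SCAF4 line in light blue, the FLAG-SCAF8 line in pink and the parental line in light grey, and bars are the mean ± SD. INTS1 and INTS3 lie at 0 in all 9 inputs, whereas the INTS7 and INTS10 inputs cover the range of the IP lists.

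Against control IP, no gene was called in either direction among 4787 tested, where 84 arrangements gave a smallest adjusted p of 0.0660 by the exact permutation test and 1561 genes had an unadjusted p under 0.05. None of the 6 Integrator genes tested had an unadjusted p under 0.05 in that test. INTS7 came nearest, 1.23 per 10000 higher in SCAF IP (p = 0.0833, exact permutation test, adjusted p = 0.181). The INTS2 difference had no settled direction. It was -0.364 per 10000 against control IP, which held 1.79 ± 2.26 (SD, n = 3), but 0.688 with covered nt, 0.21 on the log2 scale and 1.11 without replicate 2. The control value rests on 1 cluster in each of 2 control lists, and the second of them held 2314 clusters in all. INTS1 was 1.41 per 10000 higher in SCAF IP, with p = 0.202 by the exact permutation test, and 3 clusters in the control IP lists together are 2.21 per 10000. The 27 arrangements within replicate numbers (replicate block) gave no call either, with a smallest adjusted p of 0.145.

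SCAF4 IP and SCAF8 IP were set side by side with 3 lists each, and 20 arrangements allow no p below 0.10, so that no gene was called. INTS3 was higher in every SCAF4 IP list than in every SCAF8 IP list, with means of 0.862 and 0. Its clusters all came from SCAF4 IP, so it met the limit of 10 clusters through that group alone. A count of 0 allows up to 3 clusters, which is 0.723 to 1.64 per 10000 in SCAF8 IP lists. INTS3 lay below this range in SCAF4 IP replicates 1 and 3, at 0.527 and 0.589. INTS7 was higher in every SCAF8 IP list, with 0.919 to 1.18 per 10000 in SCAF4 IP and 1.20 to 2.73 in SCAF8 IP, so that the nearest lists almost met. The lists of the other 4 genes with at least 10 clusters, INTS1, INTS2, INTS6 and INTS10, overlapped. Among all 4632 genes with at least 10 clusters in these 6 lists, 11.2% lay wholly higher in SCAF4 IP and 7.34% wholly higher in SCAF8 IP. With 6 genes, a count of 1 in each direction does not set the family apart from these shares.

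Most clusters in the Integrator genes lay in exons. With the isoform of largest summed exon length, 63 of 85 midpoints in SCAF4 IP and 34 of 56 in SCAF8 IP were exonic, although exons make up 8.21% of the length of these genes. By list, the share was 63.6, 73.1 and 81.8% in SCAF4 IP and 63.2, 45.5 and 65.4% in SCAF8 IP, with a mean of 72.8 ± 9.09% (SD, n = 3) and 58.0 ± 10.9% (SD, n = 3). The SCAF4 and SCAF8 lists overlapped in this share. Over all protein-coding genes the same lists gave 68.0 ± 4.92% (SD, n = 3) and 64.5 ± 3.02% (SD, n = 3), within 1 SD of the Integrator genes for both proteins. Control IP had 4 of 6 clusters in exons and the 9 inputs 8 of 18, few for a share by list, and 3 of these 12 lists held no Integrator cluster at all. Cluster density was 1.11 per kb of exon and 0.0347 per kb elsewhere in SCAF4 IP, and 0.599 and 0.0347 in SCAF8 IP, summed over 3 lists. In the inputs it was 0.141 and 0.0158, summed over 9 lists. Clusters were thus denser in exons in the inputs as well.

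The choice of isoform mattered for INTS6 and INTS4. The INTS6 isoform with the largest exon sum has 3 exons at the start of the gene, and all 13 INTS6 clusters lay outside it, whereas all 13 lay in exons of the Ensembl canonical isoform of 18 exons. Both INTS4 clusters of SCAF8 IP were in the last exon of its longest isoform and outside the canonical isoform. With canonical isoforms the share in exons was 78.7 ± 6.98% in SCAF4 IP and 67.1 ± 3.02% in SCAF8 IP (SD, n = 3 each). Each SCAF4 IP list, at 72.7, 76.9 and 86.4%, then lay above each SCAF8 IP list, at 68.4, 63.6 and 69.2%, so that whether the 2 proteins overlap in this share depends on the isoforms.

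**Figure D3:**
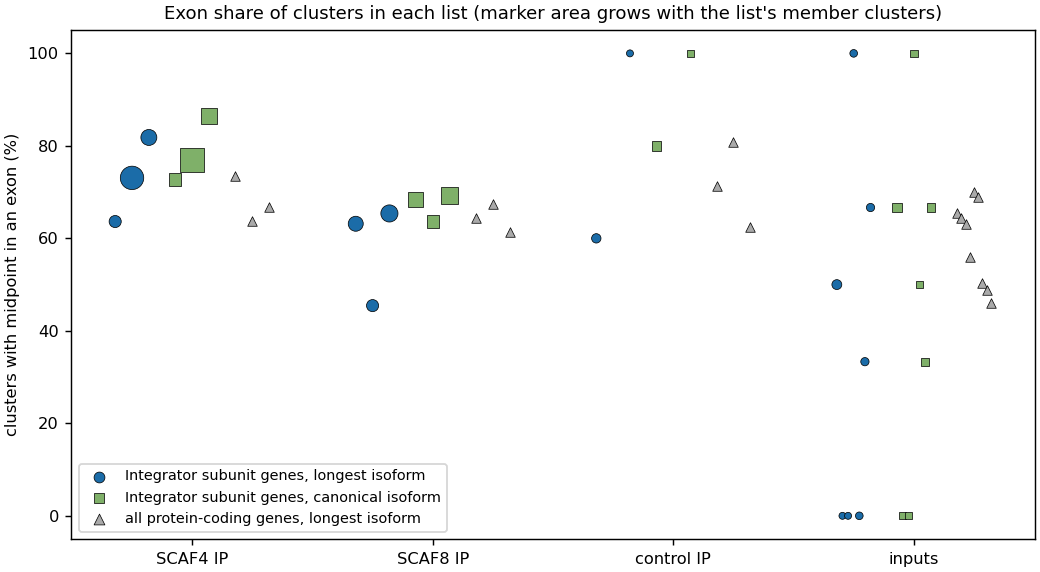
Percentage of clusters with the midpoint in an exon, by list and group. Circles are the Integrator genes with the longest isoform, squares the same genes with the canonical isoform, and triangles all protein-coding genes; marker area of circles and squares grows with the number of Integrator clusters. SCAF4 IP lists hold 63.6 to 81.8% and SCAF8 IP lists 45.5 to 65.4% with the longest isoform, whereas the few clusters of inputs spread from 0 to 100%.

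Genes differed in where clusters fell. In INTS1, 26 of 31 SCAF4 IP and 8 of 12 SCAF8 IP clusters were in exons. In INTS3 it was 9 of 11, and in INTS7 6 of 11 in SCAF4 IP and 10 of 16 in SCAF8 IP. The 7 INTS7 input clusters had 2 midpoints in exons, none of the 3 INTS2 input clusters did, and all 6 INTS10 input clusters did. INTS9, whose clusters came from SCAF8 IP, had 3 of 5 in exons.

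Clusters were next merged across the 6 SCAF IP lists to find recurrent sites. This gave 74 regions in the Integrator genes, of which 42 came from a single list, and 28 of these 42 from SCAF4 IP replicate 2, the largest list. The remaining 32 regions, with clusters of at least 2 of the 6 lists, are called sites. They lay in 8 genes, 12 in INTS1, 7 in INTS2, 5 in INTS7, 2 each in INTS3, INTS6 and INTS10, and 1 each in INTS4 and INTS8. INTS9 had 5 regions and none recurred. Over all protein-coding genes 39.4% held such a site, with a median of 3 sites in those that did, and 3.93% had as many as INTS1. Of the Integrator sites, 15 were found in 2 lists, 8 in 3, and 3 each in 4, 5 and 6.

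**Figure D4:**
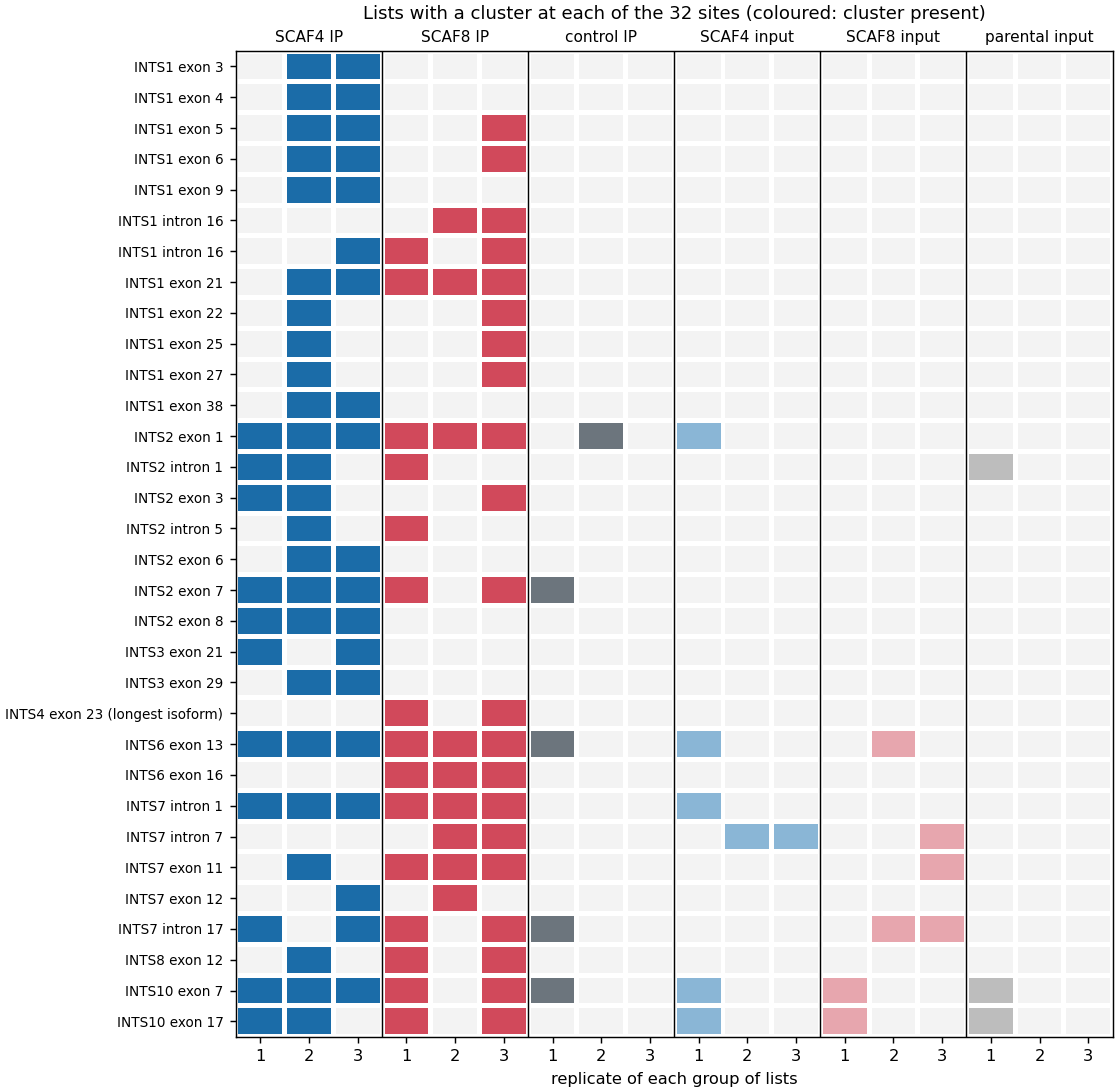
Lists (columns) with a cluster at each of the 32 sites (rows, named by gene and by the exon or intron of the canonical isoform that holds the midpoint, in order along each gene). A coloured cell marks a cluster. INTS1 sites have no control IP or input cells, and the sites found in all 6 SCAF IP lists, in INTS2, INTS6 and INTS7, each also have an input cell.

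The 3 sites found in all 6 SCAF IP lists were also found outside them. The INTS2 site at the start of the gene (chr17:61927525-61927849) ran over 196 nt of the untranslated exon 1 and its 5′ splice site, and overlapped clusters of SCAF4 input replicate 1 and control IP replicate 2. The INTS7 site (chr1:212035118-212035501) spanned the same junction of its gene, with 158 nt in exon 1, of which 94 were coding, and overlapped 1 input list. INTS6 exon 13 (chr13:51376045-51376179) had clusters in all 6 lists, in 1 control IP list and in 2 input lists, and the merged site of 135 nt held the whole exon with both splice sites. Single clusters there were 81 to 135 nt long, so that not each of them spanned the exon of 127 nt. INTS6 has a processed pseudogene, INTS6P1 on chromosome 5, that matched both INTS6 sites at 96% and 96.9% identity. Reads of either copy could be placed at the other, so INTS6 clusters are uncertain. The 30 sites of the other genes had no second place in the genome at 90% identity over 80% of their length.

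In contrast to these 3 sites, INTS1 exon 21 (chr7:1486922-1487088) was found in SCAF4 IP replicates 2 and 3 and all 3 SCAF8 IP replicates, and in no control IP or input list. INTS6 exon 16 was found in each SCAF8 IP list and in no SCAF4 IP, control IP or input list. INTS2 exon 8 (chr17:61907399-61907604), with 197 nt coding and the 5′ splice site, was found in each SCAF4 IP list and in none of the other 15. INTS2 exon 7 (chr17:61911468-61911650) was found in 5 SCAF IP lists and in control IP replicate 1. INTS7 exon 11 was found in 3 SCAF8 IP lists, 1 SCAF4 IP list and 1 input list. Each input or control IP list is smaller than each SCAF IP list, so a site absent from them may have been missed.

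INTS1 sites ran along much of the gene. Those in exons 3, 4, 5, 6 and 9 lay 1.45 to 5.61 kb from the gene start, and 2 others lay inside intron 16, at 782 and 1453 nt from the nearest splice site. Those in exons 21, 22, 25, 27 and 38 followed at 17.4 to 28.1 kb of a gene of 34.1 kb. In SCAF4 IP replicate 1 no INTS1 site was seen. INTS2 sites lay within the first 20.5 kb of a gene of 62.7 kb, and INTS3 sites lay in exons 21 and 29 of 30, the first of them 39.7 kb from its start.

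**Figure D5:**
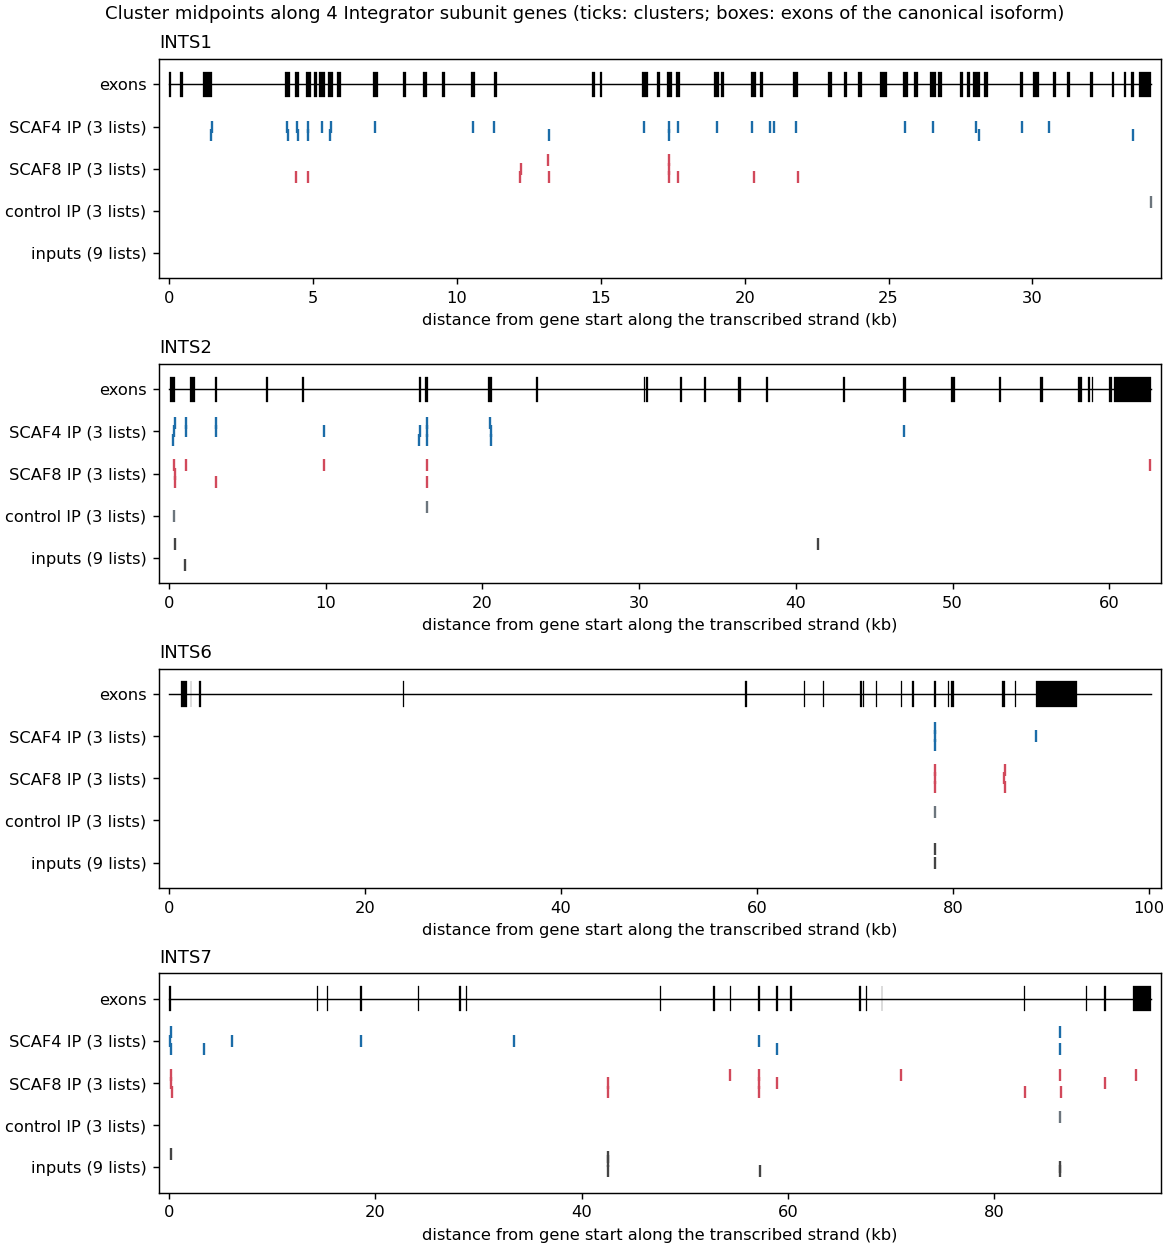
Midpoints of clusters (ticks) along INTS1, INTS2, INTS6 and INTS7, by distance from the gene start in kb, in rows for SCAF4 IP, SCAF8 IP, control IP and input, with small offsets for the lists of a group. Black boxes are exons of the canonical isoform. INTS1 has no input ticks, and at INTS6 exon 13 the ticks of all 4 rows align.

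Of the 32 sites, 24 had the midpoint in an exon of the canonical isoform, 75.0% beside 65.2% of the 36461 sites of all protein-coding genes, and 24 held coding sequence. A splice site lay inside 19 sites, 59.4% beside 44.2% of all sites. It was a 5′ splice site in 16, 50.0% beside 33.7%, and a 3′ splice site in 6, 18.8% beside 28.6%. A whole exon lay inside 3 sites, 9.38% beside 20.1%, and 7 sites held no exon of the canonical isoform. The median site was 153.5 nt long, against 192 nt for all sites. The end of a shorter annotated isoform was inside or within 200 nt downstream of 1 site, INTS1 exon 6, which is 3.13% beside 15.6% of all sites.

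Most Integrator sites were free of input clusters. No input list overlapped 23 of the 32 sites, 71.9% beside 58.0% of all sites, and no control IP list overlapped 27. After removal of sites with clusters of more than 1 input list or of any control IP list, and of any gene that reached 1 merged region of input clusters in 10 kb, 25 of the 32 Integrator sites were left, 78.1% beside 37.9% of all sites. All 12 INTS1 sites, 5 INTS2, 3 INTS7 and 2 INTS3 sites were among them, with 1 each of INTS4, INTS6 and INTS8. Neither INTS10 site was left, since both overlapped the first replicate of all 3 input groups. After these steps 7 of the 10 genes held a site, beside 25.5% of protein-coding genes. None of these shares was tested, because the sites of a gene share its transcript.

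SCAF4 and SCAF8 were also given their own sites, those in at least 2 of the 3 lists of a protein. SCAF4 had 20 in the Integrator genes and SCAF8 15. Of these, 8 SCAF4 sites (40.0%) and 8 SCAF8 sites (53.3%) overlapped a site of the other protein, beside 51.5% and 74.2% for all protein-coding genes. INTS7 shared both of its SCAF4 sites and INTS10 both, INTS2 shared 2 of 6, and INTS1 1 of 7, which was exon 21. Neither INTS3 site of SCAF4 was shared. The unshared INTS1 sites of SCAF4 were found in SCAF4 IP replicates 2 and 3, and some of them also in SCAF8 IP replicate 3 alone, so that they missed the limit of 2 lists for SCAF8.

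Short motifs were counted in 100 nt around each site's midpoint on the transcribed strand. The study reported these motifs as overrepresented in its own PAR-CLIP sites, so their presence here is no independent result. CGG or CGA was present in 25 of 32 windows, 78.1% beside 67.1% of all sites and 71.9% on the other strand of the same windows. CTCC or CACC was present in 65.6%, beside 48.8% of all sites and 65.6% on the other strand. CAG with C or G on each side was in 46.9%, beside 43.4% of all sites and 50.0% on the other strand. Matches of different motifs can overlap, and a match is no more than the presence of these letters. The windows of the Integrator sites had a median GC content of 54%, against 49% for all sites, and its part in these shares was not tested. All 12 INTS1 windows held CGG or CGA, at 54 to 67% GC, whereas the windows of INTS6 exon 13 and INTS8 exon 12, at 34 and 35% GC, had 1 copy each.

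Of 11 other genes of the pathway, 5 could be tested against input. INTS11, the endonuclease, was called higher, with 6, 16 and 9 clusters in SCAF4 IP, 5, 3 and 6 in SCAF8 IP and 0 or 1 in each input. Its difference was 1.77 per 10000 (adjusted p = 0.0123, exact permutation test), close in size to that of INTS1. PPP2CA, the catalytic subunit of the phosphatase, was called lower, at 4.05 ± 1.41 per 10000 (SD, n = 6) in SCAF IP and 8.89 ± 3.50 (SD, n = 9) in input, with an adjusted p = 0.0318 in the exact permutation test. This direction depends on scaling to list size. PPP2CA was lower in every setting that used shares, though clusters of at least the median score gave only -0.94 per 10000 (adjusted p = 0.823, exact permutation test). Raw numbers of clusters gave a difference of 6.28 clusters towards SCAF IP (adjusted p = 0.0220, exact permutation test). They are not scaled to list size, each SCAF IP list is larger than each input list, and with them 4254 of 5233 genes were called higher and 0 lower. Neither INTS11 nor PPP2CA was called without replicate 2, without replicate 3 or in the paired fit, and INTS11 was not called without replicate 1. The differences of INTS13, PPP2R1A and SEM1 did not pass, and INTS12, INTS14, INTS15, NABP1, NABP2 and INIP had too few clusters. INTS11 also lay wholly higher in SCAF4 IP, at 2.92 ± 0.256 per 10000 (SD, n = 3), than in SCAF8 IP, at 1.69 ± 0.273 (SD, n = 3). PPP2R1A, the scaffold subunit of the phosphatase, lay wholly higher in SCAF8 IP, at 5.51 ± 1.52 against 2.73 ± 0.544 (SD, n = 3 each). The inputs differed in the same way, at 9.02 ± 4.03 in the FLAG-SCAF8 line and 1.22 ± 1.06 in the FLAG-SCAF4 line (SD, n = 3 each). These input lists did not overlap either, and a difference between the proteins apart from that between the extracts was not tested. The shares of all genes without overlap were 11.2% and 7.34%, as given above.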

How the data were processed

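PAR-CLIP cluster lists were used as deposited. Per the study's methods and the labels, the authors trimmed reads with Trim Galore and cutadapt, aligned them to GRCh38 with Bowtie2 2.2.9, removed duplicates with Picard and called clusters with PARalyzer on soluble and chromatin reads combined. Per the labels, reads were made with bcl2fastq 1.8. The deposited column used is an unnamed score between 0.50 and 1.00, which served only to rank clusters in an alternative. The lists precede the authors' filters on input and control IP, and replicate 1 had longer reads. Positions were read as 0-based starts, which the files do not state.

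Clusters were assigned by midpoint to 20007 protein-coding genes of GENCODE 44 with Python 3.11.15, numpy 2.4.6, scipy 1.17.1 and pysam 0.24.0. A gene's share of its list, in clusters per 10000, was compared by two-sided exact permutation tests for every gene with at least 10 clusters and adjusted by Benjamini-Hochberg at 0.05. The 10 clusters were counted over all lists compared, so a gene could meet the limit through 1 group alone. The test was checked on simulated lists with the real, unequal sizes. More unchanged genes were called than the nominal false discovery rate allows, nearly always as higher in IP, so calls near the threshold are weak. Replicate labels name separate samples. In the main comparison with input, p-values measure the spread over lists pooled across proteins and lines. They leave out the pairing of IP and input, which only the paired fit uses. IP and input of a number come from the same extract. Deviations from group means correlated at 0.0286 to 0.334 within these 6 pairs and at -0.25 to 0.138 between other numbers of a line. Copies of sites were searched with blastn. All 10 genes are named, with 11 other genes of the pathway as counts. The genes and lists were chosen with earlier results of these data known.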

Additional observations from a re-analysis of the deposited data

Results flagged for a closer look

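INTS2 in input stood out because 1 list lay far from the others. SCAF4 input replicate 1 held 2 INTS2 clusters, 1.71 per 10000, against 1 cluster in the next list and 0 in the other 7. These 2 clusters are counted in the comparison of INTS2 with input. Without this list the mean INTS2 share in input was 0.1001 in place of 0.279 per 10000, and the fold of SCAF IP over input 14.2 in place of 5.11.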

How the results depend on the processing

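The counts of calls depended most on the settings. Genes called higher than input (1091) became 4254 with raw numbers of clusters, 1644 and 520 with at least 5 and 20 clusters, 270 with clusters of at least the median score, 475 with the 6 inputs of the tagged lines, 386 with SCAF4 IP alone and 0 with SCAF8 IP alone. Genes called lower (296) became 0 with raw numbers, 31 with the median score, 55 with SCAF4 IP alone and 0 with SCAF8 IP alone. With IP and input paired (replicate block), 0 were called in either direction, and leaving out a replicate gave 0 to 696 higher and 0 to 179 lower. Of the Integrator genes, 2 were called; the count was 4 with raw numbers, 1 with covered nt, the median score, the difference over its standard error (a setting chosen after seeing the data) or SCAF4 IP alone, 0 with SCAF8 IP alone, the 6 inputs or the replicate block, and 0 to 2 without a replicate. Against control IP, log2 shares gave 943 higher and 197 lower, where INTS11 and PPP2R1A were called higher; none of INTS1 to INTS10 was called under any setting. Without a replicate, 3 to 6 genes had SCAF4 and SCAF8 lists that did not overlap, against 2 with all lists, the value without replicate 1 being 6, in a setting also chosen after seeing the data and with fewer lists by construction.

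The mean exon share became 58.5% in SCAF4 IP and 33.3% in control IP with the median score, and 70.1% in SCAF8 IP with exons of all isoforms. Without a replicate it ran from 68.4 to 77.4% in SCAF4 IP, 54.3 to 64.3% in SCAF8 IP, 60 to 100% in control IP and 8.33 to 50% in input. Sites fell from 32 to 17 with at least 3 lists and to 18 with the median score, and those left after removal from 25 to 11 and 15. Without a replicate there were 15 to 28 sites, 9 to 21 of them left after removal. The shared part of SCAF4 sites ran from 26.7 to 75.0%, the latter without replicate 2, and that of SCAF8 sites from 46.2 to 50.0%. Of 189 values for single genes, 147 kept their direction and side of the threshold, 27 lost the call, 4 gained it and 11 changed sign. INTS2 against control IP turned from -0.364 to 3.67 clusters with raw numbers, 0.688 with covered nt, 0.21 with log2 shares and 1.77 with the median score, and ran from -1.18 to 1.11 without a replicate. INTS10 against input turned to 1.17 clusters with raw numbers, 0.25 with log2 shares and 0.0837 with SCAF4 IP alone. PPP2CA turned to 6.28 clusters against input and 9.83 against control IP with raw numbers, and to 0.277 against control IP with the median score. Of these, PPP2CA against input was called in both directions, higher with raw numbers alone, and the others in neither. Raw numbers are not scaled to list size, and each SCAF IP list is larger than each input or control IP list. The folds without 1 list, given with INTS1, INTS2 and INTS3, were also chosen after seeing the data. The cause of these changes was not tested.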
